A study of Mus musculus with 12 samples.

Results

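The 9 genes described here restrain T cells or mark T cells under lasting stimulation: the receptor genes *Pdcd1* (PD-1), *Ctla4*, *Lag3*, *Havcr2* (TIM-3), *Tigit*, *Cd160* and *Btla*, the ectoenzyme gene *Entpd1* (CD39) and the transcription factor gene *Tox*. They were taken by symbol from a table of read counts with 55421 genes, and all 9 were found and passed the filter on low counts. The cells were OT-I cells, CD8 T cells with 1 transgenic receptor for an ovalbumin peptide, that were Rroid2 knockout (KO) or Rroid2 wild-type (WT). After transfer and infection of the host mice with Listeria that carry ovalbumin (LM-OVA), OT-I cells were recovered from the spleen by cell sorting. RNA sequencing covered 6 groups of 2 libraries each: KO and WT memory precursor effector cells (MPEC) on day 14 after infection, KO and WT short-lived effector cells (SLEC) on day 14, and KO and WT SLEC on day 7. All groups share the transgenic receptor, the transfer, the infection and the organ. The sorting gates, the kind of knockout, the ages of the mice and the number of mice behind a library are not stated in the labels. P-values therefore measure only the spread between libraries, which may be technical. Rroid2 RNA itself was not analysed here.

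Inhibitory receptors are induced when a T cell is activated, and they dampen signals of the T cell receptor and of costimulation. PD-1 and BTLA recruit phosphatases to the membrane, CTLA-4 takes the ligands CD80 and CD86 away from CD28, LAG-3 binds MHC class II, TIM-3 binds several ligands that include galectin-9, and TIGIT competes with CD226 for CD155. BTLA and CD160 share the ligand HVEM, the product of *Tnfrsf14*. CD39 degrades extracellular ATP and so feeds the production of adenosine. TOX is a DNA-binding protein needed for exhausted T cells in chronic infection, where many of these receptors stay on the surface together. In an acute infection the receptors are transient on most cells, SLEC mostly die during contraction, and MPEC give rise to long-lived memory cells.

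In the authors' build, GRCm38, with GENCODE M21 annotation, *Pdcd1* lies at chr1:94038305-94052553 on the minus strand and *Ctla4* at chr1:60887000-60915832 on the plus strand. *Lag3* is at chr6:124904361-124911705 (minus), *Havcr2* at chr11:46454935-46481255 (plus) and *Tigit* at chr16:43648867-43664146 (minus). *Cd160* is at chr3:96798763-96829351 (minus), *Btla* at chr16:45224315-45257670 (plus), *Entpd1* at chr19:40612366-40741602 (plus) and *Tox* at chr4:6686353-6991557 (minus). Exons of *Cd160* overlap those of *Pdzk1* on the other strand, with 47 counts over all libraries for *Pdzk1* against 6443 for *Cd160*. *Tox* overlaps the antisense gene *Gm11802*, with 7 counts against 2085 for *Tox*. The strand setting of the counting is not given, so reads of such partners cannot be told apart from those of the gene.

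RefSeq start sites on GRCm38.p6 were available for 7 of the 9 genes, all but *Lag3* and *Tox*, and the 250 bases before the start are shown for the 5 of these 7 whose level spanned the widest range over the libraries. Capitals mark matches, on either strand, to 1 of 4 short motifs: GGAAA (the core bound by NFAT factors, TTTCC on the other strand), TGANTCA (AP-1), CAGCTG (E proteins) and GGTGTGA (T-box factors).
Havcr2 (chr11:46454681-46454930, plus strand): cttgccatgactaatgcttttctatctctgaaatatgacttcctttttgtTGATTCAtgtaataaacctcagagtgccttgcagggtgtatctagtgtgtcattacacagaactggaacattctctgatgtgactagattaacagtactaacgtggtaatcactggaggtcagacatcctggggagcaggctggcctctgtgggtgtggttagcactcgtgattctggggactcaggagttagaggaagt
Tigit (chr16:43664185-43664434, minus strand): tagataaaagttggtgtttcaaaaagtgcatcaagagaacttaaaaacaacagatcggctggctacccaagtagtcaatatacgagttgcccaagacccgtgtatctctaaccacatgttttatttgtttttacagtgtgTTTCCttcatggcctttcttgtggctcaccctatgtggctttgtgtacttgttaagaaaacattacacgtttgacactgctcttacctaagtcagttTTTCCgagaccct
Ctla4 (chr1:60908775-60909024, plus strand): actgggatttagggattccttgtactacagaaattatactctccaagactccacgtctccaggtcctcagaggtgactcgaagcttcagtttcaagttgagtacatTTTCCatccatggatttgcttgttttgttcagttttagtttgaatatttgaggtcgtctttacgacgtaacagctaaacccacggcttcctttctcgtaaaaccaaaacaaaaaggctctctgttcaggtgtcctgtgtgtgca
Entpd1 (chr19:40612116-40612365, plus strand): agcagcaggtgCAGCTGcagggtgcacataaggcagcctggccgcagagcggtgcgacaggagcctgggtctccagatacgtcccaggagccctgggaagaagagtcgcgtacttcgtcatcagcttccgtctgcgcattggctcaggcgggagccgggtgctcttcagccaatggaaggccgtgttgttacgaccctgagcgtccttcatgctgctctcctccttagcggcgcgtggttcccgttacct
Btla (chr16:45224087-45224336, plus strand): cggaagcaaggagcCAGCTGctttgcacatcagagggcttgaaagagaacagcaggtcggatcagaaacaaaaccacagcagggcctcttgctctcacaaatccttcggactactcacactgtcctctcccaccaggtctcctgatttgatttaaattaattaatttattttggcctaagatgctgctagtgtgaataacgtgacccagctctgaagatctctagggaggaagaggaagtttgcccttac
*Havcr2* alone among the 9 start sites of the 7 genes had an AP-1 match, which 6.75% of 32851 mouse promoters of this length hold. CAGCTG stood before *Btla*, the first *Entpd1* start and a *Cd160* start, and in 13% of all promoters. GGAAA stood before 5 of the 9 start sites, *Ctla4*, *Tigit* and *Pdcd1* included, and in 55.6% of all promoters. The T-box motif matched only at the second *Cd160* start and in 3.33% of all promoters. These matches describe the letters and are no measure of binding.

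Levels are given as CPM, counts scaled to the size and composition of the library, and between genes as TPM, the counterpart of CPM that also divides by exon length. Per length, *Cd160* was the most abundant of the 9 (median 25.9 TPM over the 12 libraries), followed by *Tigit* (19.7), *Havcr2* (11.3), *Pdcd1* (9.61), *Entpd1* (7.33), *Lag3* (6.10), *Btla* (5.51), *Tox* (1.64) and *Ctla4* (1.47). The genes differed widely in how far their level moved. *Havcr2* covered the widest range, with 73.9-fold between its highest and lowest library in CPM, followed by *Ctla4* with 52.9-fold. *Tox*, *Btla* and *Entpd1* spanned 12.6-fold, 11.8-fold and 10.1-fold. *Tigit* spanned 7.45-fold, *Lag3* 5.81-fold and *Pdcd1* 4.40-fold, while *Cd160* moved least, 2.56-fold. Of the TPM summed over the 9 genes, *Havcr2* made up 0.993% to 2.70% in the MPEC libraries, 8.77% to 20.6% in SLEC on day 14 and 23.9% to 36.0% in SLEC on day 7.

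**Figure D1:**
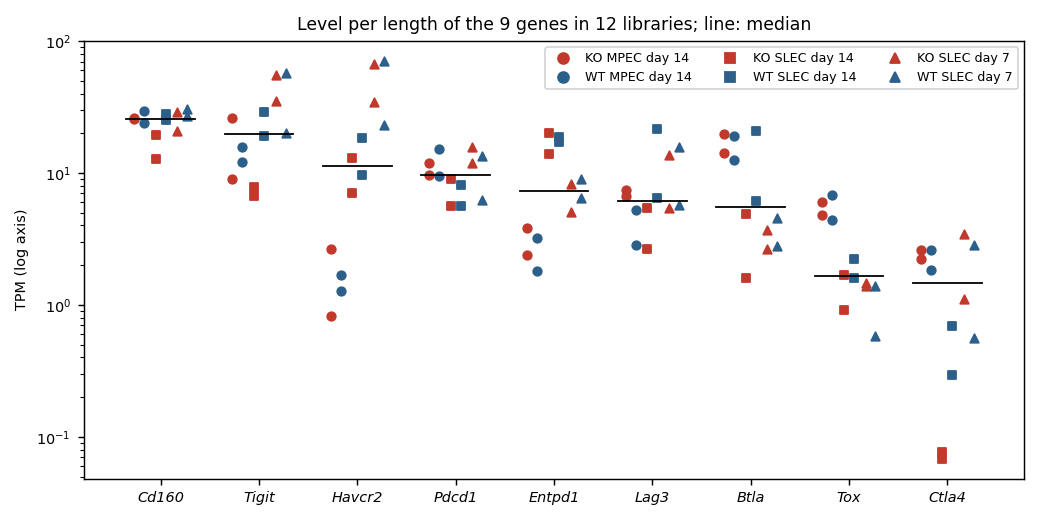
Level of each of the 9 genes in the 12 libraries in TPM on a log axis, with symbols for the group and a line at the median. *Cd160* stays in a narrow band around its median of 25.9 TPM, while *Havcr2* spreads from 0.828 to 71.1 TPM.

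The labels of the sort were checked against marker genes. *Klrg1*, the surface marker of SLEC, had 1.33 to 3.74 CPM in MPEC and 132 to 321 CPM in SLEC. All 12 libraries held 7603551 to 14026594 counts, and 8 CD8 T cell genes summed to 3772 to 5185 CPM in all of them. B cell RNA was uneven: the sum of 12 B cell genes was 287 and 1307 CPM in SLEC of day 14 from WT and 137 and 20.6 CPM in WT MPEC, against 1.67 to 25.6 CPM in the other 8 libraries. Monocyte and macrophage genes (10) reached 67.0 and 53.2 CPM in that WT SLEC group and 7.42 to 33.6 CPM elsewhere. Neutrophil genes (6) reached 38.1 and 3.16 CPM there and at most 3.63 CPM elsewhere, and dendritic cell genes (7) at most 4.34 CPM anywhere. NK cell genes (6), several of which SLEC also use, summed to 92.5 to 119 CPM in SLEC on day 14 and to 8.32 to 39.1 CPM elsewhere, with *Ncr1* at 0 in both libraries of 5 of the 6 groups. The sum of 4 CD4 and regulatory T cell genes was 58.2 to 85.3 CPM in SLEC on day 14 and 35.9 to 55.6 CPM elsewhere. Of these, *Cd4* and *Foxp3* had at most 1.06 and 0.636 CPM in any library, and *Zbtb7b* and *Cd40lg* made up the rest. Erythroid genes (7) summed to 101 and 24.8 CPM in KO SLEC on day 7 and to 0 to 26.6 CPM elsewhere, and plasma cell genes (5) to 15.9 and 4.68 CPM in WT SLEC on day 14 and at most 1.92 CPM elsewhere. The part of these genes in the results below was not tested, except that a term for B cell RNA (mean log2 CPM of the 12 genes) was fitted. Beside 1 coefficient per group, only differences between replicates set the effect of this term. It was 3.64 and 5.88 in WT SLEC of day 14. It also differed in SLEC of day 7, where the sums were low: 0.005 and -2.47 in KO, -2.67 and 0.30 in WT. The replicates of WT MPEC lay farthest apart, with a term of 2.45 and -1.64. Shifts with the term therefore cannot be assigned to B cell RNA alone.

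MPEC and SLEC of day 14 differed in most of the 9 genes. Averaged over both genotypes, 5 were higher in MPEC (*Tox*, *Ctla4*, *Btla*, *Pdcd1* and *Cd160*), 2 were lower (*Entpd1* and *Havcr2*), and *Lag3* and *Tigit* were not called, so that 7 of 9 were called where 13.1% of all genes were. Genes were called by edgeR's quasi-likelihood test with Benjamini-Hochberg adjustment over 14460 genes at an adjusted p under 0.05, here written edgeR adjusted p. The median log2 change of the 9 genes was 0.74 and their median absolute change 1.70, against -0.01 and 0.31 over all genes. Within KO cells 4 of 9 were called, where 5.11% of all genes were, and within WT cells 4 of 9, where 7.96% were. *Tox*, *Ctla4* and *Entpd1* were called in both genotypes, *Btla* in KO and *Pdcd1* in WT. The *Ctla4* calls within a genotype did not hold under every omission of 1 library, while those of *Tox* and *Entpd1* did. Over these omissions the log2 change of *Ctla4* was 4.9 to 5.3 in KO and 2.1 to 3.6 in WT. In bulk RNA, fewer cells that express a gene and less RNA per cell cannot be told apart.

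Among the receptors of the CD28 family, *Ctla4* had 4.41 and 4.41 CPM in KO MPEC, against 0.101 and 0.137 CPM in KO SLEC on day 14, which rest on 1 count in each of the SLEC libraries. In WT cells it had 3.02 and 5.09 CPM in MPEC, against 0.883 and 0.316 CPM in SLEC (12 and 5 counts). MPEC thus stood above SLEC in both genotypes with no overlap. Summed over the libraries, KO MPEC held 89 counts and KO SLEC 2, a CPM ratio of 37.9 (exact 95% interval 10.2 to 317, counting error only), and WT MPEC held 94 against 17 in WT SLEC, a ratio of 6.81 (4.04 to 12.2). The log2 change averaged over genotypes was 3.93 ± 0.72 (SE, edgeR adjusted p = 0.00087).

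*Btla*, whose protein binds HVEM, had 48.7 and 41.0 CPM in KO MPEC, against 10.6 and 4.12 CPM in KO SLEC on day 14. In WT it had 45.8 and 35.9 CPM in MPEC, against 11.3 and 32.8 CPM in SLEC. All 4 MPEC libraries were above all 4 SLEC libraries, and the highest SLEC value came from the WT library with the most B cell RNA, 1307 CPM of the B cell list. The log2 change was 2.53 ± 0.47 in KO (edgeR adjusted p = 0.0078) and 0.87 ± 0.38 in WT (edgeR adjusted p = 0.21), with a mean of 1.70 ± 0.31 (edgeR adjusted p = 0.0025). Without that WT SLEC library the WT difference was 1.85 (edgeR adjusted p = 0.0071). B cells also express *Btla*. With a term for B cell RNA the mean change of *Btla* was 2.09 (edgeR adjusted p = 0.00017).

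*Pdcd1* had 13.7 and 19.6 CPM in KO MPEC, against 11.1 and 8.25 CPM in KO SLEC on day 14. Its level was 13.0 and 24.7 CPM in WT MPEC, against 5.96 and 7.21 CPM in WT SLEC. Groups did not overlap in either genotype. The log2 change was 0.76 ± 0.40 in KO (edgeR adjusted p = 0.36) and 1.48 ± 0.38 in WT (edgeR adjusted p = 0.022), with a mean of 1.12 ± 0.28 (edgeR adjusted p = 0.011). *Cd160*, a lipid-anchored receptor of the same HVEM ligand as BTLA, had 49.4 and 58.5 CPM in KO MPEC, against 32.7 and 25.8 CPM in KO SLEC. In WT it had 55.1 and 53.1 CPM in MPEC, against 40.3 and 30.8 CPM in SLEC. The difference was small and the same way in all libraries, with a mean log2 change of 0.74 ± 0.19 (edgeR adjusted p = 0.014). Leaving out 1 library ended the call of *Pdcd1* in 3 of 12 cases (KO SLEC replicate 2, KO MPEC replicate 2 or WT MPEC replicate 2, highest edgeR adjusted p 0.077). The *Cd160* call was lost without KO SLEC replicate 2, KO MPEC replicate 2 or WT SLEC replicate 2 (highest edgeR adjusted p 0.081). With the term for B cell RNA the mean changes were 0.91 for *Pdcd1* (edgeR adjusted p = 0.084) and 0.52 for *Cd160* (edgeR adjusted p = 0.1), and neither was called.

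*Tox* had 33.6 and 30.9 CPM in KO MPEC, against 8.20 and 5.36 CPM in KO SLEC on day 14. In WT it had 23.9 and 43.9 CPM in MPEC, against 9.27 and 5.63 CPM in SLEC. Every MPEC library lay above every SLEC library of either day, and the 4 SLEC groups overlapped along their order. The log2 change was 2.21 ± 0.38 in KO (edgeR adjusted p = 0.0013) and 2.18 ± 0.33 in WT (edgeR adjusted p = 0.00045), and the mean of 2.20 ± 0.25 kept its call without any 1 library (highest edgeR adjusted p 0.00013). With the term for B cell RNA the mean change of *Tox* was 1.85 (edgeR adjusted p = 0.00012), and the WT change was 1.47 (edgeR adjusted p = 0.079).

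*Entpd1* moved the other way. It had 9.65 and 18.1 CPM in KO MPEC, against 49.5 and 85.3 CPM in KO SLEC on day 14, and 12.7 and 8.48 CPM in WT MPEC, against 52.3 and 48.0 CPM in WT SLEC. The CD39 gene was thus lower in all 4 MPEC libraries, by a mean log2 change of -2.24 ± 0.21 (edgeR adjusted p = 1.6e-06), nearly the same in KO (-2.26 ± 0.30) and in WT (-2.22 ± 0.30). B cells and myeloid cells also express *Entpd1*. With the term for B cell RNA its mean change was -2.13 (edgeR adjusted p = 1.1e-05). The difference between the KO and WT changes of *Entpd1* was -0.03 on the log2 scale (95% interval -0.95 to 0.89). *Havcr2* had 1.64 and 6.14 CPM in KO MPEC, against 12.1 and 27.1 CPM in KO SLEC on day 14, and 3.25 and 2.92 CPM in WT MPEC, against 27.3 and 12.2 CPM in WT SLEC. MPEC were lower with no overlap, and the mean log2 change was -2.46 ± 0.63 (edgeR adjusted p = 0.042). That call was near the threshold and was lost in 9 of the 12 omissions of 1 library, with an edgeR adjusted p of up to 0.14. The 3 omissions that kept the *Havcr2* call were those of WT SLEC day 14 replicate 2 and of either WT SLEC day 7 library. With the term for B cell RNA the mean change of *Havcr2* was -2.18 (edgeR adjusted p = 0.12).

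*Lag3* and *Tigit* were not called. *Lag3* had 11.5 and 11.9 CPM in KO MPEC, against 7.28 and 4.26 CPM in KO SLEC on day 14, and 7.86 and 5.09 CPM in WT MPEC, against 24.7 and 6.33 CPM in WT SLEC. The 24.7 CPM of 1 WT SLEC library set the sign of the WT value: the log2 change was -1.21 ± 0.65 with it and 0.03 without it. That library, replicate 1, also had the highest sums of plasma cell (15.9 CPM), neutrophil (38.1 CPM) and monocyte and macrophage genes (67.0 CPM). Its B cell sum of 287 CPM was below the 1307 CPM of replicate 2. The part of such RNA in the *Lag3* value was not tested. *Tigit* had 6.06 and 20.4 CPM in KO MPEC, against 4.55 and 4.67 CPM in KO SLEC, and 10.2 and 9.33 CPM in WT MPEC, against 14.6 and 8.16 CPM in WT SLEC. Libraries of *Tigit* overlapped in WT and did not in KO, with log2 changes of 1.54 ± 0.65 in KO (edgeR adjusted p = 0.25) and -0.20 ± 0.52 in WT (edgeR adjusted p = 0.88).

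**Figure D2:**
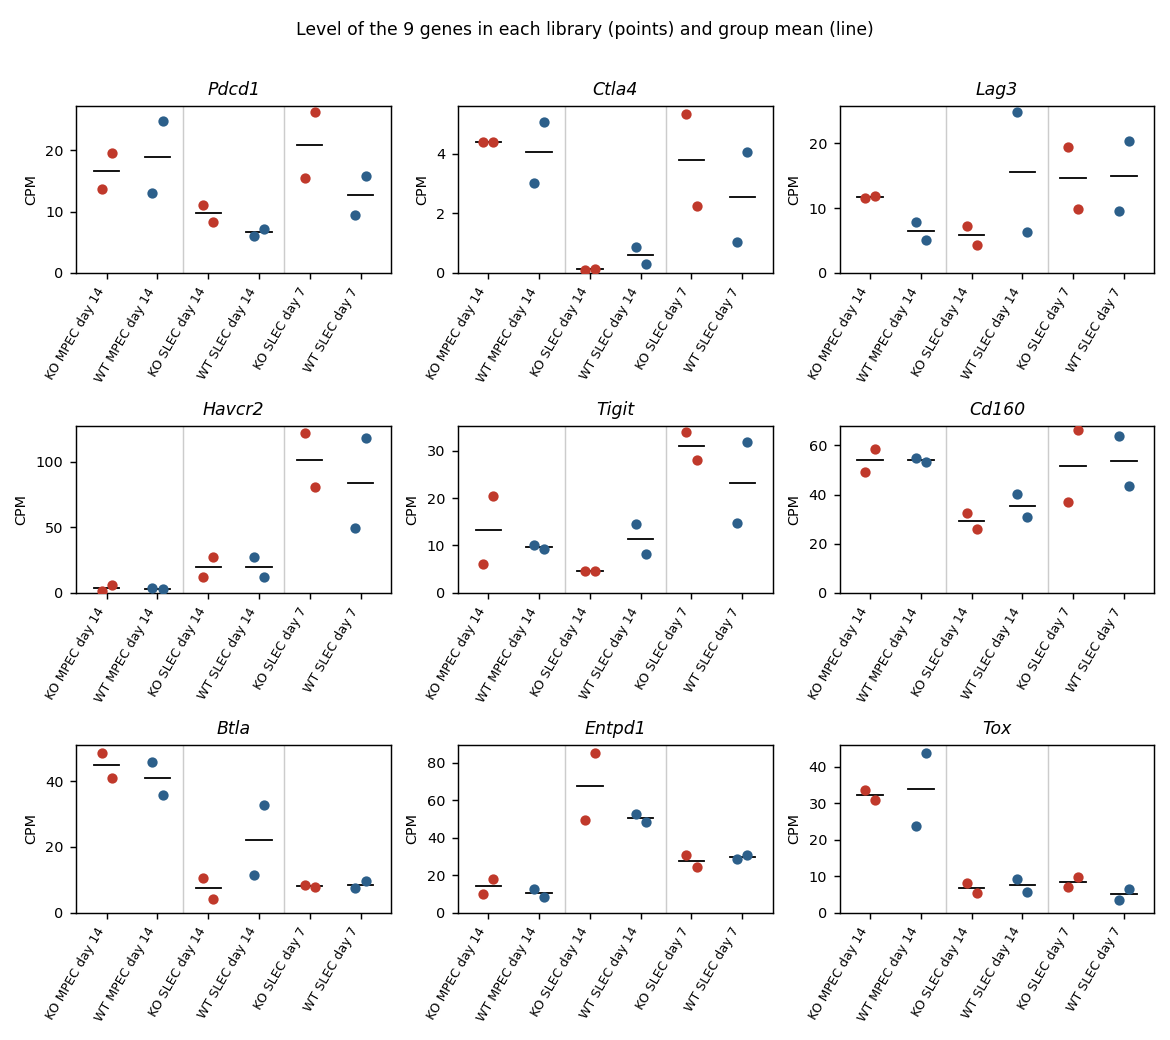
Level of each gene in CPM, with 1 point per library, a line at the group mean and groups in the order MPEC day 14, SLEC day 14 and SLEC day 7, KO left of WT. *Tox* and *Btla* are high in MPEC, *Entpd1* is high in SLEC on day 14, and *Havcr2* is high in SLEC on day 7.

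SLEC of day 14 were then set against SLEC of day 7. Averaged over genotypes, *Ctla4*, *Havcr2*, *Tigit*, *Pdcd1* and *Cd160* fell and *Entpd1* rose, so 6 of 9 were called, where 25.1% of all genes were. *Btla*, *Lag3* and *Tox* were not called. The median log2 change of the 9 genes was -0.69, against 0.02 over all genes. Within KO 4 of 9 were called (*Ctla4*, *Havcr2* and *Tigit* lower, *Entpd1* higher), where 17.2% of all genes were. Within WT 0 of 9 were called by edgeR, where 9.94% of all genes were. An unadjusted edgeR p under 0.05 was found for 7 of the 9, and for 3414 of all 14460 genes. DESeq2 called 1 of the 9 in WT, *Btla*. The WT SLEC libraries held 287 and 1307 CPM of B cell genes on day 14, against 1.67 and 25.6 CPM on day 7. The part of B cell RNA in that call was not tested.

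*Havcr2*, the TIM-3 gene, was at its highest on day 7. It stood at 12.1 and 27.1 CPM in KO SLEC on day 14, against 121 and 80.7 CPM on day 7. In WT it was 27.3 and 12.2 CPM on day 14, against 49.6 and 118 CPM on day 7. Days did not overlap. The level of *Havcr2* therefore came in 3 separate steps (SLEC of day 7, SLEC of day 14, MPEC of day 14), and KO and WT overlapped on each step. Its mean log2 change from day 7 was -2.26 ± 0.43 (edgeR adjusted p = 0.0075), with -2.42 ± 0.62 in KO (edgeR adjusted p = 0.038) and -2.10 ± 0.59 in WT (edgeR adjusted p = 0.067).

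*Ctla4* had 0.101 and 0.137 CPM in KO SLEC on day 14, against 5.36 and 2.24 CPM on day 7, and 0.883 and 0.316 CPM in WT SLEC on day 14, against 1.03 and 4.07 CPM on day 7. Day 14 was below day 7 in both genotypes. In summed counts this was 2 against 94 in KO, a CPM ratio of 0.0288 (exact 95% interval 0.00344 to 0.107), and 17 against 66 in WT, a ratio of 0.224 (0.123 to 0.387). The mean log2 change of *Ctla4* was -3.55 ± 0.76 (edgeR adjusted p = 0.002). *Tigit* had 4.55 and 4.67 CPM in KO SLEC on day 14, against 33.9 and 28.2 CPM on day 7, and 14.6 and 8.16 CPM in WT SLEC on day 14, against 14.7 and 31.9 CPM on day 7. The KO days stood far apart, while the WT days nearly met. *Tigit* changed by -2.76 ± 0.58 on the log2 scale in KO (edgeR adjusted p = 0.0072) and by -1.05 ± 0.46 in WT (edgeR adjusted p = 0.19). The difference of these changes was -1.71 ± 0.77 (unadjusted p = 0.047, edgeR adjusted p = 0.75) and was not called.

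*Entpd1* had 49.5 and 85.3 CPM in KO SLEC on day 14, against 30.9 and 24.4 CPM on day 7, and 52.3 and 48.0 CPM in WT SLEC on day 14, against 28.4 and 30.6 CPM on day 7. The summed CD4 and regulatory T cell genes were also at their highest in SLEC of day 14, at 58.2 CPM or more. Within that sum, *Cd4* and *Foxp3* had at most 0.957 and 0.607 CPM, and *Zbtb7b* and *Cd40lg* made up the rest. The part of the summed genes in the *Entpd1* value was not tested. *Entpd1* was the only one of the 9 called higher on day 14, with a mean log2 change of 1.01 ± 0.19 (edgeR adjusted p = 0.00082). Calls of *Ctla4*, *Havcr2*, *Tigit* and *Entpd1* in the mean over genotypes held without any 1 of the 12 libraries. *Pdcd1* had 11.1 and 8.25 CPM in KO SLEC on day 14, against 15.5 and 26.2 CPM on day 7, and 5.96 and 7.21 CPM in WT SLEC on day 14, against 9.46 and 15.8 CPM on day 7. Its mean log2 change was -0.997 ± 0.276 (edgeR adjusted p = 0.014). *Cd160* had 32.7 and 25.8 CPM in KO SLEC on day 14, against 36.8 and 66.1 CPM on day 7, and 40.3 and 30.8 CPM in WT SLEC on day 14, against 64.1 and 43.4 CPM on day 7, a mean log2 change of -0.69 ± 0.19 (edgeR adjusted p = 0.012). Day 14 was lower without overlap for both genes in both genotypes. The *Pdcd1* call was lost without KO SLEC day 7, KO SLEC day 14 or WT SLEC day 7 replicate 2 (highest edgeR adjusted p 0.076), and the *Cd160* call without KO SLEC day 7, KO SLEC day 14 or WT SLEC day 14 replicate 2 (highest 0.07). Both calls also ended with the term for B cell RNA, at -0.72 for *Pdcd1* (edgeR adjusted p = 0.17) and -0.35 for *Cd160* (edgeR adjusted p = 0.3).

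The other 3 genes did not pass. *Tox* had 8.20 and 5.36 CPM in KO SLEC on day 14, against 7.14 and 9.69 CPM on day 7, and 9.27 and 5.63 CPM in WT on day 14, against 3.50 and 6.45 CPM on day 7. *Lag3* had 7.28 and 4.26 CPM in KO SLEC on day 14, against 19.3 and 9.90 CPM on day 7, and 24.7 and 6.33 CPM in WT on day 14, against 9.54 and 20.3 CPM on day 7. *Btla* had 10.6 and 4.12 CPM in KO SLEC on day 14, against 8.40 and 7.86 CPM on day 7, and 11.3 and 32.8 CPM in WT on day 14, against 7.55 and 9.45 CPM on day 7. The days overlapped for *Tox* and *Lag3* in WT and for *Tox* and *Btla* in KO. Within day 7 the libraries of 1 genotype differed as much as the genotypes did: KO replicate 1 and WT replicate 2 were the higher library of their group for *Havcr2*, *Ctla4*, *Lag3* and *Tigit*. They were the lower library of their group for *Cd160*.

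Placed in order of their means, the 6 groups separated to different degrees. *Entpd1* fell into 3 blocks without overlap, SLEC of day 14 (means 67.4 CPM in KO and 50.2 CPM in WT), SLEC of day 7 (27.6 CPM in KO and 29.5 CPM in WT) and MPEC (13.9 CPM in KO and 10.6 CPM in WT). *Btla* had the MPEC groups on top (44.8 CPM in KO and 40.8 CPM in WT), then WT SLEC of day 14 alone (22.1 CPM), and 3 groups between 7.37 and 8.50 CPM whose neighbours overlapped. The 22.1 CPM of *Btla* is the mean of 11.3 CPM and of 32.8 CPM in the library with 1307 CPM of B cell genes. KO SLEC of day 14 reached 10.6 CPM. *Ctla4* had WT SLEC of day 14 (0.600 CPM) and KO SLEC of day 14 (0.119 CPM) apart at the lower end, below 4 groups of 2.55 to 4.41 CPM whose neighbours overlapped. *Cd160* showed no gap between neighbouring groups, over means of 29.3 to 54.1 CPM. *Pdcd1* had 1 gap, between KO SLEC of day 14 (9.69 CPM) and WT SLEC of day 14 (6.59 CPM). The only gap of *Tigit* set KO SLEC of day 14 (4.61 CPM) below WT MPEC (9.76 CPM), and that of *Lag3* lay between KO MPEC (11.7 CPM) and WT MPEC (6.47 CPM).

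**Figure D3:**
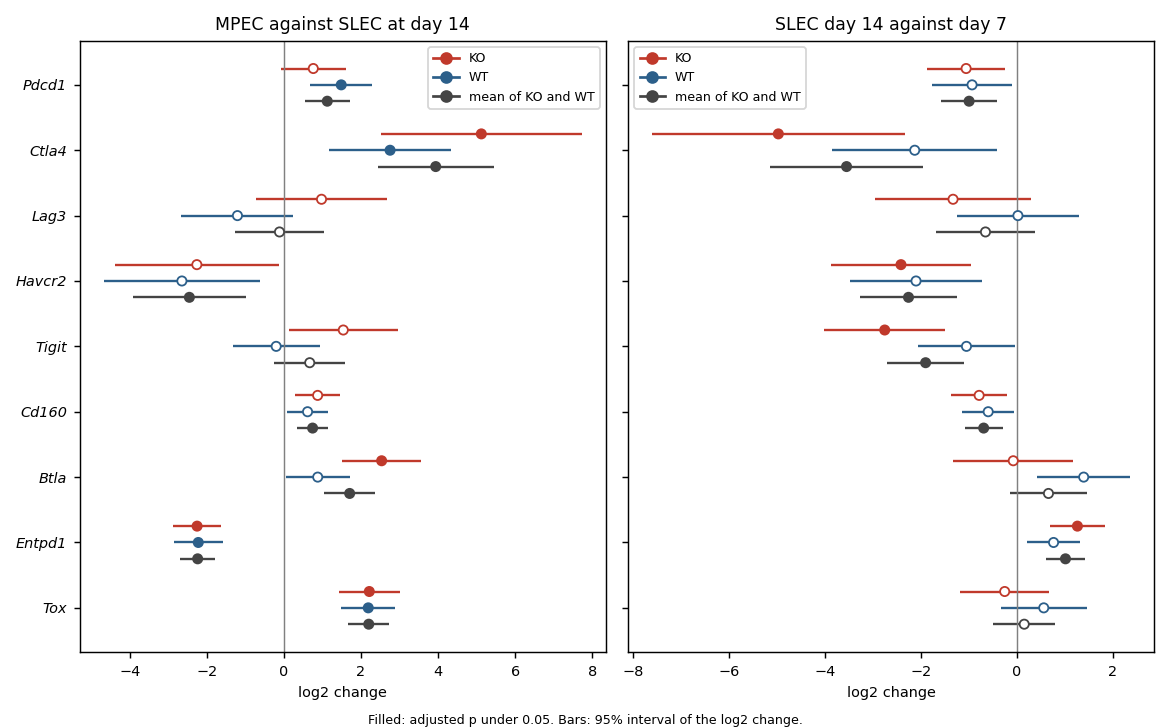
Log2 change of each gene for MPEC against SLEC at day 14 (left) and for SLEC of day 14 against day 7 (right), within KO, within WT and as their mean, with 95% intervals and filled points at an edgeR adjusted p under 0.05. *Entpd1* lies at -2.24 on the left and at 1.01 on the right in the mean, the reverse of the sign of *Ctla4* and *Pdcd1* in both panels.

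No KO effect on the 9 genes was called. In SLEC of day 7, 0 of 9 passed edgeR's test, where 0.0277% of all genes did, and 0 of 9 had an unadjusted p under 0.05. The fitted changes there depended on 1 library. Without WT SLEC day 7 replicate 2, the log2 change of *Ctla4* was 1.96 in place of 0.63, and that of *Havcr2* was 1.05 in place of 0.28. In SLEC of day 14, 0 of 9 passed, where 0.546% of all genes did. An unadjusted p under 0.05 was reached by 1804 of all 14460 genes, with 1 of the 9 among them (*Btla*). DESeq2 called 1 of the 9 there (*Btla*). In MPEC, 0 of 9 passed, where 0.0138% of all genes did, with 0 of 9 under 0.05 before adjustment. In the mean over the 3 populations 0 of 9 passed, where 0.083% of all genes did, again with 0 at an unadjusted p under 0.05. DESeq2 called 0 of 9 in these 3 comparisons. The 95% intervals of the mean KO effect on the log2 scale were narrowest for *Cd160* (-0.12, from -0.43 to 0.20), *Entpd1* (0.24, from -0.12 to 0.60) and *Pdcd1* (0.37, from -0.09 to 0.83). They were widest for *Havcr2* (0.20, from -0.95 to 1.34) and *Ctla4* (-0.48, from -1.99 to 1.04), so that changes of more than 1.5-fold either way lie inside both intervals.

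The largest fitted KO differences stood in SLEC of day 14. *Btla* had 10.6 and 4.12 CPM in KO, against 11.3 and 32.8 CPM in WT, a log2 change of -1.53 ± 0.49 (95% interval -2.60 to -0.46, unadjusted p = 0.009, edgeR adjusted p = 0.2). DESeq2 gave it an adjusted p of 0.024. KO lay below WT, narrowly so for 1 pair of libraries. The summed B cell genes were also lower in KO here, at 13.2 and 7.01 CPM against 287 and 1307 CPM in WT. With a term for B cell RNA the *Btla* change was -0.39 (edgeR adjusted p = 0.97). Without the WT library of 1307 CPM it was -0.55, and without the other WT library -2.10. In SLEC of day 7, KO replicate 1 and WT replicate 2 had both the higher term and the higher *Btla*, and that difference enters the fit. The part of B cell RNA in the *Btla* difference was therefore not tested.

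*Tigit* had 4.55 and 4.67 CPM in KO SLEC of day 14, against 14.6 and 8.16 CPM in WT. Its log2 change was -1.29 ± 0.64 (edgeR adjusted p = 0.44), and -0.62 with the term for B cell RNA (edgeR adjusted p = 0.97). In SLEC of day 7, KO replicate 1 and WT replicate 2 had both the higher term and the higher *Tigit*. That replicate difference enters the fit, so the part of B cell RNA in the *Tigit* shift was not tested. *Lag3* had 7.28 and 4.26 CPM in KO, against 24.7 and 6.33 CPM in WT, with -1.35 ± 0.71 (edgeR adjusted p = 0.49) and -0.11 without WT replicate 1. This is the library with the highest plasma cell, neutrophil and monocyte sums, whose part in the *Lag3* value was not tested. *Ctla4* had 2 counts over both KO libraries, against 17 over both WT libraries, a CPM ratio of 0.202 (exact 95% interval 0.0226 to 0.849, counting error only). That interval leaves out the spread between libraries, with which the log2 change of *Ctla4* was -2.21 ± 1.93 (edgeR adjusted p = 0.72). KO and WT did not overlap for 4 of 9 genes in this population (*Btla*, *Tigit*, *Ctla4* and *Pdcd1*), where 47.6% of all genes did not. The log2 change of *Pdcd1* was 0.57 ± 0.44 (edgeR adjusted p = 0.66), and -0.02 with the term for B cell RNA. In SLEC of day 7 the genotypes did not overlap for 1 of 9, where 23.4% of all genes did not. This was *Tox*, with 7.14 and 9.69 CPM in KO against 3.50 and 6.45 CPM in WT (log2 change 0.73, 95% interval -0.18 to 1.64). In MPEC they did not overlap for 1 of 9, where 30.1% of all genes did not, namely *Lag3*, with 11.5 and 11.9 CPM in KO against 7.86 and 5.09 CPM in WT (log2 change 0.83, 95% interval -0.74 to 2.40).

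**Figure D4:**
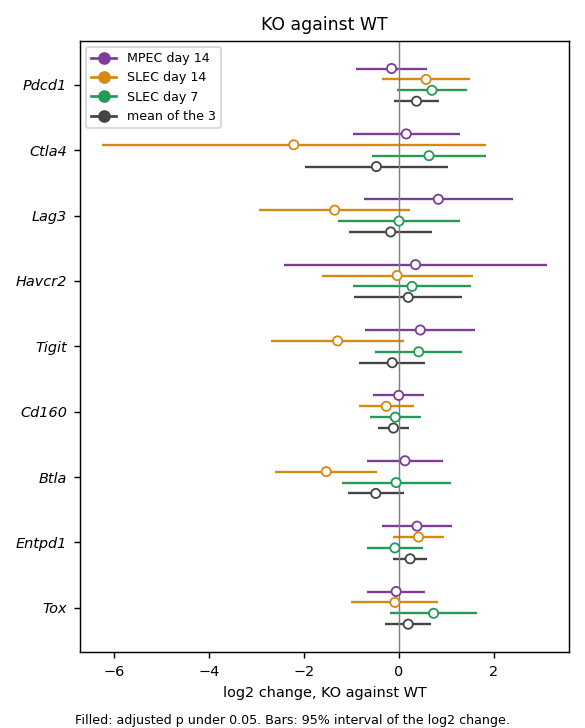
Log2 change of each gene in KO against WT in MPEC, in SLEC of day 14, in SLEC of day 7 and as their mean, with 95% intervals. All points are open, that is, no edgeR adjusted p was under 0.05, and the interval of *Btla* in SLEC of day 14 runs from -2.60 to -0.46.

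The KO effect was also compared between populations. Between SLEC of day 14 and SLEC of day 7 it differed in 0 of 9 genes by edgeR, where 0.00692% of all genes were called. An unadjusted p under 0.05 was reached by 951 of all 14460 genes, with 1 of the 9 among them (*Tigit*, above). Between MPEC and SLEC of day 14 it differed in 0 of 9, where 0% of all genes were called. Here 612 of all 14460 genes had an unadjusted p under 0.05, with 1 of the 9 among them. That gene was *Btla*, with a difference of 1.66 ± 0.62 on the log2 scale (unadjusted p = 0.02, edgeR adjusted p = 1). The *Btla* difference was 0.84 with the term for B cell RNA, where 0 of 9 had an unadjusted p under 0.05, and 0.68 without the WT SLEC library of 1307 CPM of B cell genes. DESeq2 called 0 of 9 in both, with 2 and 3 of the 9 at an unadjusted p under 0.05, among 989 and 661 of 32855 genes.

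**Figure D5:**
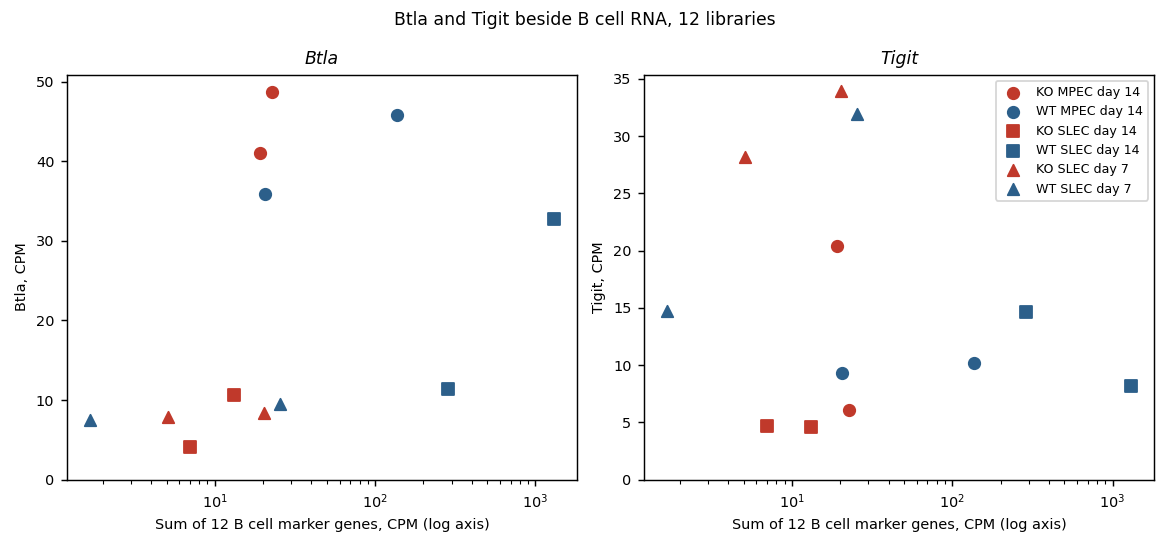
Level of *Btla* (left) and *Tigit* (right) in CPM against the summed CPM of 12 B cell genes on a log axis, with 1 point per library. The WT SLEC day 14 library at 1307 CPM of B cell genes has 32.8 CPM of *Btla*, the highest of all SLEC libraries.

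Genes that act with the receptors were taken as lists and read in the means over genotypes, where 13.1% of all genes were called between MPEC and SLEC and 25.1% between the days. The part of B cell RNA in the listed genes was not tested. Of 11 tested ligand genes, 1 was higher and 2 were lower in MPEC than in SLEC: *Tnfrsf14*, the HVEM gene, by 0.78 ± 0.17 (edgeR adjusted p = 0.0043), *Cd80* by -1.61 ± 0.39 (edgeR adjusted p = 0.011) and *Lgals3* by -1.34 ± 0.33 (edgeR adjusted p = 0.026) on the log2 scale. *Tnfrsf14* had 22.7 to 33.2 CPM in MPEC, against 14.6 to 19.2 CPM in SLEC, so the gene of the shared ligand moved the same way as those of its receptors, *Btla* and *Cd160*. Between the SLEC of both days, 2 ligand genes were higher on day 14 (*Tnfsf14* by 1.18 ± 0.20, *Pvr* by 0.51 ± 0.15) and 2 lower (*Lgals9*, the galectin-9 gene, by -0.50 ± 0.11, and *Lgals3* by -1.32 ± 0.29). Of 15 signalling genes, 0 were higher and 2 lower in MPEC (*Ubash3b* by -1.03 ± 0.13 and the SHP-1 phosphatase gene *Ptpn6* by -0.48 ± 0.13), and 4 were higher and 2 lower on day 14. Among the 6, *Sh2d1a*, which encodes the adaptor SAP, changed by -1.09 ± 0.17. The lower *Ptpn6* in MPEC was called within WT (-0.65 ± 0.18) and not within KO. Its MPEC libraries (364 to 459 CPM) overlapped those of SLEC on day 14 (441 to 805 CPM).

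Of the 16 other inhibitory receptor genes, 4 were higher and 4 lower in MPEC, where 13.1% of all genes were called. *Cd101* was higher by 1.35 ± 0.23 and *Cd5* by 0.66 ± 0.12. *Klrg1*, which by convention defines the sort, had a log2 change of -5.98 ± 0.22 and *Klrc1*, which encodes NKG2A, one of -0.97 ± 0.15. Of 3 costimulatory receptor genes, *Cd28*, whose ligands CTLA-4 takes away, was higher in MPEC by 0.95 ± 0.12, beside the higher *Ctla4*. In the same comparison *Icos* was higher by 0.65 ± 0.14. *Icos* was lower on day 14 by -0.72 ± 0.14, as was *Ctla4*. In the adenosine pathway, 1 of 8 genes was higher and 1 lower in MPEC, *Adk* by 1.48 ± 0.27 and the adenosine receptor gene *Adora2a* by -0.64 ± 0.14. *Nt5e*, whose product CD73 acts after CD39, was higher on day 14 by 2.32 ± 0.59 (edgeR adjusted p = 0.028), the 1 of 8 called there and in the same direction as *Entpd1*.

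Transcription factors linked to exhaustion were mixed. In MPEC 3 of 21 were higher and 5 lower, where 13.1% of all genes were called, among them *Id3* (log2 change 3.96 ± 0.59) on the higher side, as was *Tox*, and *Prdm1* (-1.78 ± 0.13), *Ikzf3* (-0.76 ± 0.11) and *Tbx21* (-0.88 ± 0.13) on the lower. On day 14, 7 of 21 were higher and 4 lower than on day 7, with *Bach2* at 1.78 ± 0.16, *Nfatc1* at 0.80 ± 0.11 and *Nfatc2* at 0.56 ± 0.11 on the higher side, where 25.1% of all genes were called. *Batf*, an AP-1 factor gene, was on the lower side, with at most 28.7 CPM on day 14 and at least 45.5 CPM on day 7 (edgeR adjusted p = 5.1e-05). Genes of receptor trafficking had 1 of 12 higher and 1 lower in MPEC and 3 higher and 2 lower on day 14. In the mean KO effect 0 genes of any of the 7 lists were called by edgeR. Within populations the 1 call was *Siglecg* in SLEC of day 14, a receptor gene that B cells use, with 0 to 0.405 CPM in KO against 6.77 to 34.0 CPM in WT.

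The genes most like each of the 9 over the 12 libraries were sought by Pearson's r of log2 CPM among 7796 genes. These values share libraries and group structure and are a description. *Havcr2* ran closest to *E2f2* (r = 0.99) and to the granzyme B gene *Gzmb* (0.98), *Tox* to *Shisa5* (0.98), *Btla* to *Dph5* (0.97) and *Entpd1* to *Lrrc75b* (0.99). *Ctla4* ran closest to *Myb* and *Actn1* (both 0.96), *Pdcd1* to *Nme1* (0.96), *Tigit* to *Lamtor4* (0.96) and *Cd160* to *Nsa2* (0.96). *Lag3* had the weakest best match, *Ptpn7* at 0.92. Among the 9 genes themselves, *Btla* and *Tox* were the most alike (r = 0.79), while *Havcr2* and *Btla* (-0.84) and *Entpd1* and *Tox* (-0.82) ran most opposed.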

How the data were processed

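The deposited file holds raw read counts per gene. The submitters' processing notes name bcl2fastq, STAR 2.6.1a and GRCm38, and no label or header names the counting program or its strand setting. Columns were matched to samples by the labels. Of 55421 identifiers, 54673 were found in GENCODE M21, and 25 symbols damaged by a spreadsheet were restored through the identifier. From the counts, edgeR 4.0.16 in R 4.3.3 kept 14460 genes (filterByExpr, at least 99.7% of each library's counts), applied TMM scaling (trimmed mean of M-values) and fitted a robust quasi-likelihood model with 1 coefficient per group (residual degrees of freedom 6, median prior 11.9). P-values are two-sided and adjusted by Benjamini-Hochberg over all genes tested, and calls are at 0.05. CPM use the scaled library size and TPM the merged exon length. The fit was tested on simulated data. Alternatives were DESeq2 1.42.0, other scaling factors, no filter on low counts, a replicate block, a term for B cell RNA (mean log2 CPM of 12 genes, prior count 2), the libraries of a comparison alone, and omission of each library. All 9 members were named in every comparison, up to 4 called genes per list, and 3 genes per member for likeness (mean log2 CPM of 3 or more). The 9 genes and the lists were chosen with earlier results of these data known. Count intervals leave out the spread between libraries, and reads that lack molecular identifiers are not independent, so they cover counting error only.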

Additional observations from a re-analysis of the deposited data

How the results depend on the processing

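Counts of the 9 genes called moved under these alternatives. For KO against WT in SLEC of day 14, where 0 were called, DESeq2 called 1 (*Btla*), dropping the filter on low counts called 3 (*Btla*, *Tigit* and *Lag3*), and omissions of 1 library gave 0 to 1. For day 14 against day 7 in WT, with 0 called, DESeq2 called 1 (*Btla*), no filter 3 (*Btla*, *Tigit* and *Entpd1*), and omissions 0 to 3. Omissions gave 0 to 6 in KO, where 4 were called. For MPEC against SLEC, DESeq2 called 7 in KO, against 4, and omissions gave 2 to 5; a term for B cell RNA left 1 of 4 in WT (*Entpd1*), where omissions gave 2 to 4, and 4 of 7 in the mean (*Ctla4*, *Btla*, *Entpd1* and *Tox*), where omissions gave 4 to 7. Each difference of KO effects went from 0 to 1 without the filter (*Tigit* between days, *Btla* between populations). Over all genes, DESeq2 called 1420 and the fit without the filter 1731 of 32855 for day 14 against day 7 in WT. For MPEC against SLEC, DESeq2 called 1060 of 32855 in KO, and the B cell term left 1481 of 14460 in the mean. The cause of these moves was not tested. The fit to the libraries of a comparison alone was not run for the mean KO effect, which uses all of them.

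The replicate numbers showed no clear pairing of the samples: over 15 pairs of groups the correlation of deviations was -0.13 to 0.12, with 2 over 0.1. Each group gives only 1 deviation per gene, so these values cannot exclude pairing. A replicate block gave 6 called genes in the mean of MPEC against SLEC (*Havcr2* at an edgeR adjusted p of 0.063) and the main count of called genes among the 9 in the other 11 comparisons, although day 14 against day 7 in KO lost *Havcr2* (edgeR adjusted p = 0.055) and gained *Pdcd1* (edgeR adjusted p = 0.038). Over all genes, the KO calls in SLEC of day 14 went from 79 to 246 with DESeq2, 506 without the filter, 130 with the replicate block and 2 with the B cell term, and those of the mean KO effect from 12 to 78, 167, 15 and 7. KO calls in SLEC of day 7 went from 4 to 23 without the filter and to 2 on its own libraries, and those in MPEC from 2 to 5 with DESeq2 and 7 without the filter. Day calls in WT went from 1437 to 330 on their own libraries and 481 with the B cell term, and population calls in WT from 1151 to 1998 and 432. Calls on the difference of KO effects between days went from 1 to 28 with DESeq2, 109 without the filter and 2 with the block, and between populations from 0 to 23 without the filter. Leaving out 1 library moved KO calls in SLEC of day 7 from 4 to 209 without WT SLEC day 7 replicate 2, those in SLEC of day 14 from 79 to 2 without KO SLEC day 14 replicate 2 and to 223 without WT SLEC day 14 replicate 1, and those of the mean KO effect to 59 without WT SLEC day 7 replicate 2. The difference between days went from 1 call to 96 without WT SLEC day 7 replicate 2 and 15 without WT SLEC day 14 replicate 1. Such omissions gave 249 to 982 population calls in KO and 278 to 1471 in WT, and 834 to 2930 day calls in KO and 417 to 1563 in WT. Of 647 values under the other settings, 12 lost and 32 gained a call, 34 moved, and 22 changed sign, none of them called. Of 1296 values with 1 library left out, 48 lost and 20 gained a call, 70 moved, and 71 changed sign, none of them called. *Ctla4* in SLEC of day 14 is limited by depth, with 1 to 12 counts per library.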
